A study of Mus musculus with 2112 samples.

Results

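Multipotent progenitors (MPP) stimulated with bacterial ligands were compared between old and young mice. The cells are the single-cell wells labelled MPP and LPS+PAM stimulation that carry none of the quality labels fewGenes, pctTrans or plasma. This left 65.6% of the stimulated MPP wells, which is 11.9% of all 2046 single cells profiled. Old mice 2, 3, 2-2 and 2-3 gave 42, 29, 23 and 18 cells, and young mice 1, 2, 3, 2-1 and 2-3 gave 20, 18, 39, 29 and 26. Old and young mice with the same number are different animals. Mice 2-1, 2-2 and 2-3 were counted as animals of their own because their mouse label differs, although the titles of their wells name mice 1 to 3; if they were not, n would be smaller than 4 and 5.

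Both age groups were sorted from bone marrow by surface markers and kept in HSPC medium with LPS at 100 ng/ml, a ligand of Toll-like receptor 4, and Pam3CSK4 at 1 µg/ml, a lipopeptide ligand of Toll-like receptor 2, for 2 h. Polyadenylated RNA was read along its full length by SMART-seq2, which uses no molecular identifiers. Unstimulated MPP (4 old and 3 young mice) and stimulated short-term (ST-HSC) and long-term stem cells (LT-HSC) served as comparisons. The labels give age as old or young only, and no strain, sex or genotype. Plate set A means plates 1 and 2, and plate set B plate 4.

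MPP are dividing cells downstream of the stem cells that give rise to myeloid and lymphoid lineages. They carry Toll-like receptors and answer their ligands through NF-κB and interferon genes. Major histocompatibility complex (MHC) class II molecules present peptides from taken-up proteins to CD4+ T cells. Each is a pair of an alpha chain (H2-Aa) and a beta chain (H2-Ab1), or uses the beta chain H2-Eb1 of another pair, and Cd74, the invariant chain, escorts the pair to the compartment where peptide is loaded. The transactivator Ciita switches these genes on together through short promoter elements, one of which, the Y box, holds the letters CCAAT or, on the other strand, ATTGG.

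The promoters of H2-Aa and H2-Eb1 are shown because these chains were found together in single cells of old mice. They run from 250 bases before to 50 bases after the start of the gene (RefSeq, build GRCm38.p6), 5′ to 3′ on the strand of the gene, with CCAAT and ATTGG in capitals. H2-Aa lies at chr17:34287774-34288073 on the minus strand and H2-Eb1 at chr17:34305617-34305916 on the plus strand. The promoter of H2-Ab1, the partner chain of H2-Aa, is not shown because it was not among the promoters available here.
H2-Aa: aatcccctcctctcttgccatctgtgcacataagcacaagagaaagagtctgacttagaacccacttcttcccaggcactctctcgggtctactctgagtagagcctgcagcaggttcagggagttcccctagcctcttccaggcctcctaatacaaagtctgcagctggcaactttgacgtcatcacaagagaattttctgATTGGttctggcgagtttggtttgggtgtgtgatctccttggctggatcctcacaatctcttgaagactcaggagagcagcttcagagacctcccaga
H2-Eb1: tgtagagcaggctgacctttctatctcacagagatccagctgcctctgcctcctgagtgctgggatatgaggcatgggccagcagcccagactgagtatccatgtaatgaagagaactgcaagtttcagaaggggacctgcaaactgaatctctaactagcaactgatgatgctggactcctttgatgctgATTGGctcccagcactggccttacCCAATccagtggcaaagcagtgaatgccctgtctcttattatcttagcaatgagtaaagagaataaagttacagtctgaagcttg
The H2-Aa window holds 1 ATTGG, and the H2-Eb1 window 1 ATTGG and 1 CCAAT. Of all 32851 promoters of 300 bases in the table, 37.4% hold either, so a match describes the letters and is not evidence of a bound site.

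The stimulated cells carried a summed 6215510 to 21033967 counts a mouse, and the median cell of a mouse had 295054 to 565376. The ribosomal RNA precursor Rn45s took 10.6% to 26.9% of the counts. Of the sort markers, Kit was detected in 70.8% to 94.4% of the cells of a mouse and Flt3 in 47.1% to 85.7%, whereas Cd48 was detected in 0 to 28.6%. The B cell markers Ms4a1, Pax5 and Ebf1 had no count in any stimulated sum. Neither did the plasma cell receptor Tnfrsf17 and 4 macrophage markers, Fcgr1, C1qa, C1qb and C1qc. Other markers of B cells and of monocytes and macrophages were present, with overlapping ages. The B cell marker Fcer2a averaged 42.3 CPM in old and 19.3 CPM in young mice, and Cd79b 8.22 and 8.999 CPM. Lyz2, of the monocyte and macrophage list, averaged 141.5 CPM in old and 146.1 CPM in young mice. Other plasma cell markers were present, such as Xbp1 at 172.9 ± 33.2 CPM in old and 170.1 ± 20.4 CPM in young mice, and their list summed to 315.1 to 571.6 CPM in old and 398.9 to 597.4 CPM in young mice, where 0 of 9 tested genes passed.

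H2-Aa, the class II alpha chain, was higher in stimulated MPP of every old mouse. Its level, in CPM (counts of the summed cells scaled to a common total, with TMM factors), was 149.8, 209.3, 138.2 and 160.9 in old mice 2, 3, 2-2 and 2-3. In young mice 1, 2, 3, 2-1 and 2-3 it was 20.8, 63.4, 26.6, 10.4 and 15.3. The groups did not overlap. H2-Aa rose with age by 2.79 ± 0.39 on the log2 scale (SE; adjusted p = 0.017, edgeR quasi-likelihood test over all genes with Benjamini-Hochberg adjustment, threshold 0.05). Of 12664 genes tested, 5 passed, or 0.0395%: 2 higher (0.0158%) and 3 lower (0.0237%) in old mice, with 899 at an unadjusted p under 0.05.

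The calls rest on all 4 old mice: without any one of them no gene passed, and H2-Aa had an adjusted p of 0.0741 to 0.221, with a log2 fold change of 2.71 to 3.001. In the 9 stimulated sums alone, with no unstimulated sums to share the spread, it was 2.86 (adjusted p = 0.0968, 0 genes passing). Within plate sets A and B, each with fewer mice, it was 2.29 and 3.57. These are given as effect sizes only, and no gene passed within plate set B.

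Partner genes of H2-Aa showed the same separation and did not pass the edgeR test in summed counts, while DESeq2 called them. The beta chain H2-Ab1 was at 190.9, 391.1, 240.4 and 479.2 CPM in old mice 2, 3, 2-2 and 2-3, and at 58.6, 74.8, 33.2, 64.7 and 81.6 CPM in young mice 1, 2, 3, 2-1 and 2-3 (log2 fold change 2.37 ± 0.46, adjusted p = 0.15). H2-Eb1, the other beta chain, was at 82.9, 138.7, 93.9 and 92.7 CPM in old mice, in the same order, and at 8.69, 0, 1.39, 0.333 and 11.7 CPM in young mice (4.54 ± 0.91, adjusted p = 0.161). Cd74, the invariant chain, was at 314.04, 337.9, 252.6 and 411.7 CPM against 60.9, 208.5, 72.97, 85.1 and 94.4 CPM (1.75 ± 0.41, adjusted p = 0.281). All old mice lay above all young mice for each of these 3 genes, as for 1.14% of all genes tested. In DESeq2 the adjusted p was 1.91e-05 for H2-Ab1, 4.16e-06 for H2-Eb1 and 0.00332 for Cd74, and edgeR without a filter on low counts also called them (3.03e-14, 1.93e-13 and 1.23e-06). Most alternative runs did not call them: of 25 runs, H2-Ab1 passed in 4, H2-Eb1 in 6 and Cd74 in 3.

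**Figure D1:**
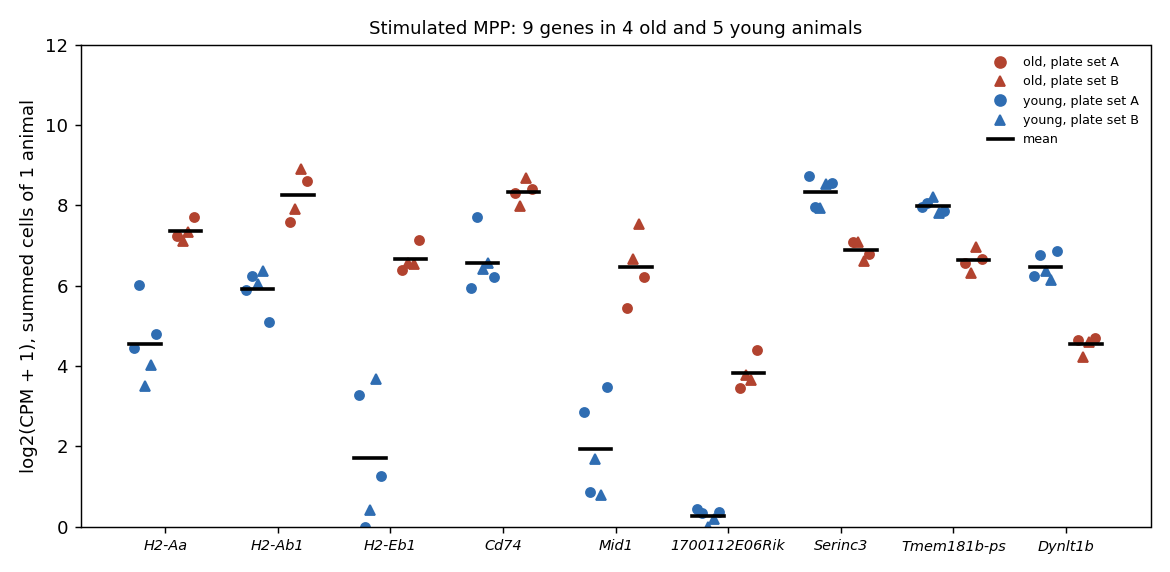
Level of 9 genes in stimulated MPP, as log2(CPM + 1) of the summed cells of each animal (y axis), with 1 point per animal, colour for age, shape for plate set and a bar for the group mean. Old and young points do not overlap for any of the 9 genes: the 4 class II genes, Mid1 and 1700112E06Rik lie higher in old mice, and Serinc3, Tmem181b-ps and Dynlt1b lower.

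Of 15 tested genes of the class II list, 1 passed the test and 12 had a positive log2 fold change, with a median of 0.83 beside -0.0041 over all genes. The peptide-loading genes H2-DMa (0.83 ± 0.26, adjusted p = 0.509) and H2-DMb1 (2.29 ± 0.78, 0.555) had overlapping groups. Ciita itself was at a mean of 14.8 CPM in 4 old and 10.9 CPM in 5 young mice, with an SD above the mean in both (log2 fold change 1.67 ± 1.68, adjusted p = 0.922). The regulators Rfx5, Rfxank and Rfxap did not pass either. In class I, which presents peptides made inside the cell, 0 of 16 genes passed and the median was 0.16. At an unadjusted p under 0.05 (edgeR), 6 class I genes were higher and 0 lower in old mice. For the class II list these counts were 7 and 0, and over all genes 4.08% and 3.02%.

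Counting cells in place of reads, with every cell thinned to 100000 counts, gave a second readout from the same wells. H2-Aa was detected, with at least 1 count, in 54.8%, 51.9%, 47.6% and 55.6% of the cells of old mice 2, 3, 2-2 and 2-3. In young mice 1, 2, 3, 2-1 and 2-3 it was 20%, 17.6%, 7.69%, 10.3% and 12.5% (limma on arcsine square-root shares, adjusted p = 0.0154). H2-Ab1 was detected in 75% ± 5.36 of the cells of old mice (SD, n = 4) and in 26.6% ± 6.58 in young mice (n = 5; limma, adjusted p = 0.0338). H2-Eb1 was detected in 38.6% ± 11.8 against 2.35% ± 2.31 (adjusted p = 0.00338), and 2 of the 5 young mice had no cell with it. Without thinning, H2-Aa was in 51.4% of old and 15.6% of young cells and H2-Eb1 in 38.8% and 5.51%, as means over mice. Cd74 was detected in 69.05% to 85.7% of old and 41.7% to 68.97% of young cells (adjusted p = 0.1). Of 10603 genes tested, 39 passed (0.368%), 38 of them more often detected in old mice (0.358%) and 1, the transporter gene Slc16a11, less often (0.00943%; 1.52% ± 1.84 against 17.8% ± 8.77). This count fell to 5, 4 and 3 without old mouse 2, 3 or 2-2 and to 12, 20 and 7 without young mouse 1, 2 or 2-3, and rose to 84 without young mouse 2-1; it also rose, to 1.64% and 1.19% of genes, without old mouse 2-3 or young mouse 3.

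Detection shares were higher in old mice for most genes: the median gene was detected in 31.1% of old and 23.1% of young cells, and 81.6% of the 10603 genes had a positive difference. For 7.96% of them all old mice lay above all young mice. Beside this shift of 6.24 percentage points in the median gene, the mean share of H2-Aa was 52.4% in old and 13.6% in young mice.

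**Figure D2:**
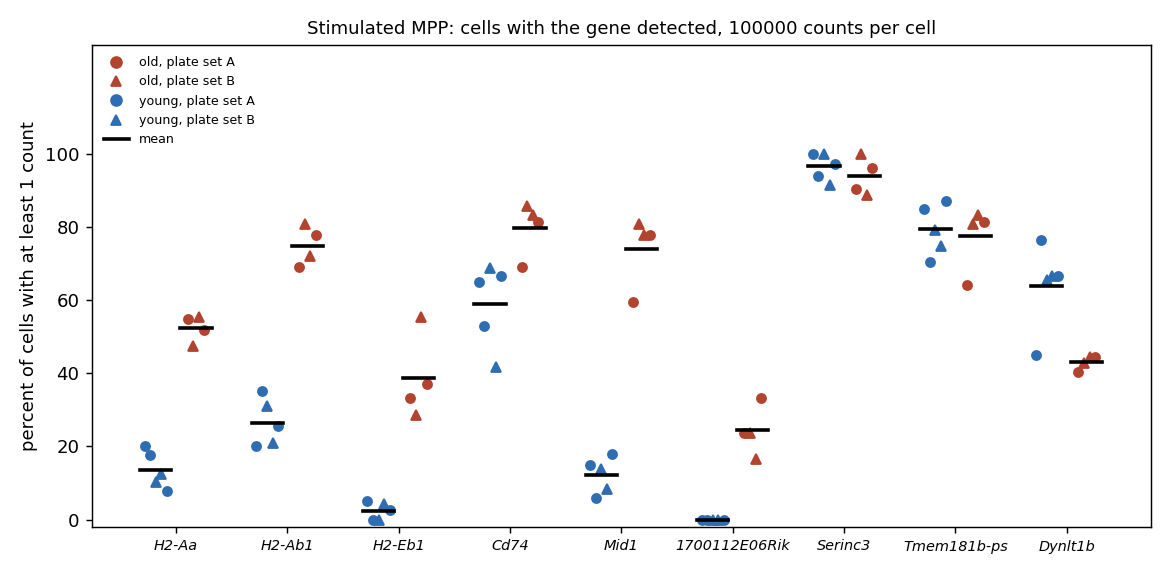
Percent of stimulated MPP with at least 1 count of each of the same 9 genes (y axis), cells thinned to 100000 counts, 1 point per animal, colour for age, shape for plate set and a bar for the group mean. H2-Aa lies between 47.6% and 55.6% in old and between 7.69% and 20% in young mice, while Serinc3 is in nearly all cells of both ages.

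Detection of the 4 class II genes was also counted cell by cell. The counts were chosen after values were seen and are given as a description, with no test. All 4 of H2-Aa, H2-Ab1, H2-Eb1 and Cd74 were detected in 13 of 42, 5 of 21, 7 of 18 and 9 of 27 thinned cells of old mice 2, 2-2, 2-3 and 3, which is 31.5% of old cells. Without thinning the share was 31.25%. No young cell held all 4 with or without thinning, which for the thinned cells of 1 young mouse allows a share of up to 7.69% to 17.6% (counting error over cells only, not transcripts that were missed). At least 1 of the 3 chains was detected in 79.6% of old and 31.8% of young cells, and none of the 4 genes in 12 old and 41 young cells.

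In old mice, H2-Ab1 was detected in 85.7% to 100% of the cells with H2-Aa and in 36.8% to 72.7% of the cells without it. H2-Eb1 was found in 50% to 70% of cells with H2-Aa and in 0 to 37.5% of those without. Irf8, a transcription factor of the dendritic cell list, was detected in 56.5% to 80% of old cells with H2-Aa and in 36.8% to 76.9% of those without. Its share was higher with H2-Aa in each of the 4 mice. In old mouse 3 it was nearly equal, at 78.6% of 14 cells against 76.9% of 13. The receptor gene Flt3, of the same list, was in 78.3% to 90% and in 15.4% to 90.9%. It was more often detected with H2-Aa in old mice 2, 3 and 2-3, but not in old mouse 2-2 (80% against 90.9%). Cd34, a surface protein of progenitors, was detected in all old cells with H2-Aa and in 78.9% to 100% of those without. The dendritic cell integrin Itgax was in at most 13.04% of old cells with H2-Aa in any mouse. With and without H2-Aa, Itgax was in 13.04% of 23 and 5.26% of 19 cells of old mouse 2. It was in 10% of 10 and 9.09% of 11 cells of old mouse 2-2, and in 10% of 10 and 0% of 8 of old mouse 2-3. In old mouse 3 it was in 0% of 14 and 7.69% of 13 cells. These shares rest on too few cells with Itgax to give a direction. Young cells with H2-Aa numbered 3 or 4 a mouse, too few to describe.

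**Figure D3:**
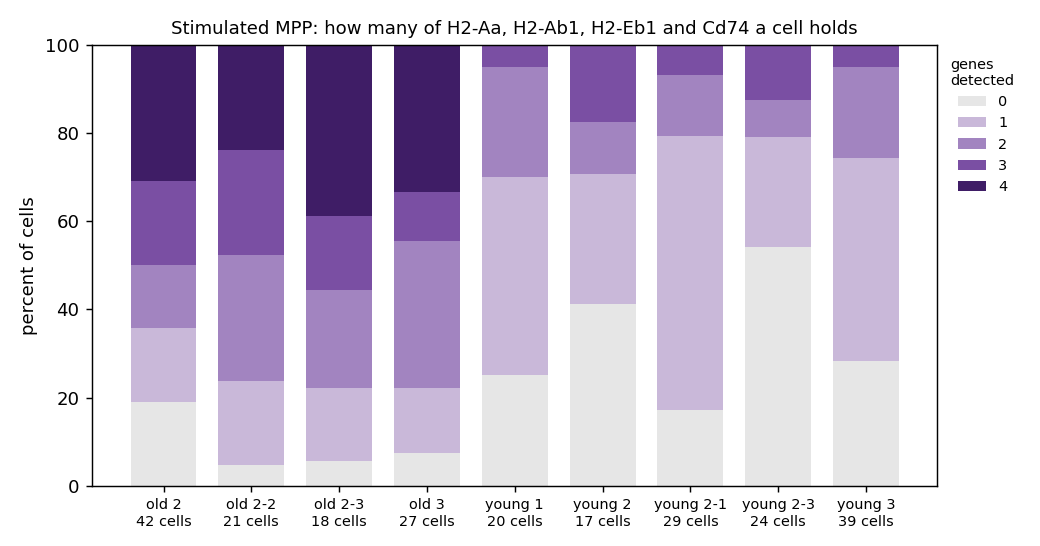
Percent of stimulated MPP of each animal (y axis) by how many of H2-Aa, H2-Ab1, H2-Eb1 and Cd74 were detected in the cell (shade), cells thinned to 100000 counts and their number under each bar. Cells with all 4 genes are present in each of the 4 old mice and in none of the 5 young mice.

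Among cells with H2-Aa, the median level was 179.5 to 225.6 CPM in old mice and 73.7 to 393.2 CPM in young mice, from 3 or 4 young cells each, so these ranges overlap. Levels of single cells were scaled to each cell's own total without TMM factors. The single richest cell gave 15.5% to 42.2% of a mouse's H2-Aa counts in old mice and 51.98% to 74.8% in young mice.

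The E3 ubiquitin ligase gene Mid1, on the X chromosome, and the unnamed gene 1700112E06Rik were also higher in old mice. Mid1 was at 42.2, 73.7, 100.9 and 183.3 CPM in old mice 2, 3, 2-2 and 2-3 and at 6.31, 0.831, 10.1, 2.22 and 0.722 CPM in young mice 1, 2, 3, 2-1 and 2-3. It did not pass in summed counts (4.66 ± 0.84, adjusted p = 0.0854, edgeR; 2.86e-08 in DESeq2) and passed in detection share, 74.01% ± 9.77 in old against 12.2% ± 4.96 in young mice (SD, n = 4 and 5; limma, adjusted p = 0.000259). 1700112E06Rik, named after its values were seen, was at 9.90, 20.1, 12.6 and 11.7 CPM in old mice and at most 0.366 CPM in a young mouse (6.10 ± 0.93, adjusted p = 0.017). It was detected in 16.7% to 33.3% of old cells and in no young cell at 100000 counts (limma, adjusted p = 5.79e-05), and without thinning in a mean of 34.99% and 5.93%. Without young mouse 2-3, as without any old mouse, its summed counts no longer passed (adjusted p = 0.0683).

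Serinc3, a membrane protein that limits the infectivity of some retroviruses, fell in old mice. It was at 135.7, 109.8, 134.9 and 96.5 CPM in old mice 2, 3, 2-2 and 2-3 and at 423.6, 249.3, 376, 242.1 and 371.8 CPM in young mice 1, 2, 3, 2-1 and 2-3, with no overlap (log2 fold change -1.47 ± 0.22, adjusted p = 0.017, edgeR). The share of cells with Serinc3 was 88.9% to 100% in old and 91.7% to 100% in young mice (limma, adjusted p = 0.556). The median level over cells with the gene was 53.5 to 121.8 CPM in old and 211.5 to 380 CPM in young mice. Its relative Serinc1 was at 231.5 ± 24.4 and 237.96 ± 29.5 CPM (-0.06 ± 0.17, adjusted p = 0.982). Without young mouse 2-3, as without any old mouse, Serinc3 had an adjusted p of at least 0.0682.

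Dynlt1b, a light chain of the dynein motor, and the pseudogene Tmem181b-ps fell as well. All old mice lay below all young mice for these genes and Serinc3, as for 0.679% of all genes tested. Dynlt1b was at 23.98, 25.1, 17.8 and 23.4 CPM in old mice 2, 3, 2-2 and 2-3 and at 75.2, 107.5, 115.5, 80.9 and 69.4 CPM in young mice 1, 2, 3, 2-1 and 2-3 (-1.98 ± 0.29, adjusted p = 0.017, edgeR). Tmem181b-ps was at 93.7, 100.7, 78.6 and 124.4 CPM against 246.6, 263.6, 231.4, 295.6 and 223.3 CPM (-1.33 ± 0.22, adjusted p = 0.0346). These 2 genes overlap each other on chromosome 17 in the RefSeq annotation and have close copies, so how reads were divided among the copies is uncertain. The copies Dynlt1a (0.01 ± 0.70) and Tmem181a (-0.17 ± 0.41, adjusted p = 0.979) did not pass. Dynlt1b did not pass without young mouse 2-1 (0.0571), and Tmem181b-ps did not without young mouse 1, 2, 2-1 or 2-3 (0.0765 to 0.157).

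Other genes with small p did not pass. Higher in every old mouse were Pxk (4.16 ± 0.86, adjusted p = 0.169), the growth factor gene Gdf3 (5.18 ± 1.08, 0.176) and Hjurp, the chaperone of the centromeric histone (1.61 ± 0.35, 0.198). Lower in every old mouse were Mbp (-1.66 ± 0.33, 0.15), the sialyltransferase gene St8sia4 (-1.71 ± 0.35, 0.169), Slc26a11 (-4.29 ± 0.99, 0.281) and Secisbp2, which helps insert selenocysteine (-1.69 ± 0.41, 0.329). The vitamin transporter gene Slc5a6 was at 0 CPM in 3 old mice and 0.048 CPM in the other, and at 46.5, 1.52, 0.29, 19.6 and 23.8 CPM in the young mice (adjusted p = 0.198). Fam120b overlapped between the groups (-1.37 ± 0.34, 0.333).

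More stimulated MPP of old mice carried the submitters' cycling label. The share of kept cells with it was 57.1%, 55.2%, 60.9% and 55.6% in old mice 2, 3, 2-2 and 2-3 and 35%, 33.3%, 33.3%, 31.03% and 23.1% in young mice 1, 2, 3, 2-1 and 2-3. The groups did not overlap and differed by 26.03 percentage points (two-sided exact permutation test, p = 0.0079, the smallest possible with 4 against 5 mice; adjusted over 6 well measures 0.0238). Permuted within plate sets, where the smallest possible p is 0.0167, the adjusted p was 0.05. Leaving out 1 mouse gave an adjusted p of 0.0357 without old mouse 2-3 and of 0.0536 to 0.0857 without any other, where fewer mice also raise the smallest possible p; the plasma label had the same values.

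Most cell cycle genes had a positive log2 fold change, and none of the listed ones passed in summed counts. The labels do not say how the cycling label was made, so it and these genes may not be separate measurements. Of S phase genes, 22 of 23 had a positive log2 fold change (median 0.54, 0 passing) and 3 did not overlap between ages. Of G2 and M phase genes, 23 of 24 were positive (median 0.98, 0 passing) and 7 did not overlap. Over all 12664 genes, 6287 were positive, and 1.14% lay higher in every old mouse. The helicase subunit gene Mcm3 was at 428.2 ± 83.5 CPM in old and 233.7 ± 24.5 CPM in young mice (SD; 0.86 ± 0.21, adjusted p = 0.327), and the cyclin gene Ccnb2 at 43.3 ± 4.81 and 22.02 ± 9.97 CPM (1.05 ± 0.32, 0.479). In detection share, Rrm1, a subunit of ribonucleotide reductase, rose from 27.2% ± 7.02 to 74.7% ± 9.35 of cells (limma, adjusted p = 0.0149), and Plk4, a kinase of centriole copying, from 15.9% ± 5.23 to 46.6% ± 3.85 (0.0163). Unstimulated MPP had medians of 0.21 and 0.78 for these S and G2/M lists.

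Class II detection was set beside the cycling label. All 4 class II genes were detected in 18 of 61 old cells with the label and in 16 of 47 without it. The mice differed for H2-Aa alone. It was in 54.2%, 33.3%, 50% and 40% of labelled cells of old mice 2, 3, 2-2 and 2-3. In their unlabelled cells it was in 55.6%, 75%, 44.4% and 75%. Leaving out all cells with the label gave 0 genes passing, with H2-Aa at a log2 fold change of 2.99 and Serinc3 at -1.56. With only labelled cells, 4 genes passed, 1 of them among the 5, and H2-Aa was at 3.05.

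Old mice also had more wells with the plasma label, which were left out above: 4.84%, 11.3%, 16.1% and 32.3% of wells in old mice 2, 3, 2-2 and 2-3, against 0 in young mice 1, 2 and 3 and 3.23% in young mice 2-1 and 2-3 (exact permutation p = 0.0079, adjusted 0.0238; within plate sets adjusted 0.05). With these cells kept, the same 5 genes passed. At 100000 counts a cell, 4027 ± 452.1 genes were detected in old and 3274 ± 263.5 in young mice (SD; exact permutation p = 0.0397, adjusted 0.0794), and the ranges overlapped. Cells with the cycling label had more detected genes than those without it in each of the 9 mice. The part of cycling and of genes detected per cell in the class II and other differences was not tested. Share of wells kept, Rn45s percent and median counts did not pass (adjusted p 0.429 to 0.944).

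**Figure D4:**
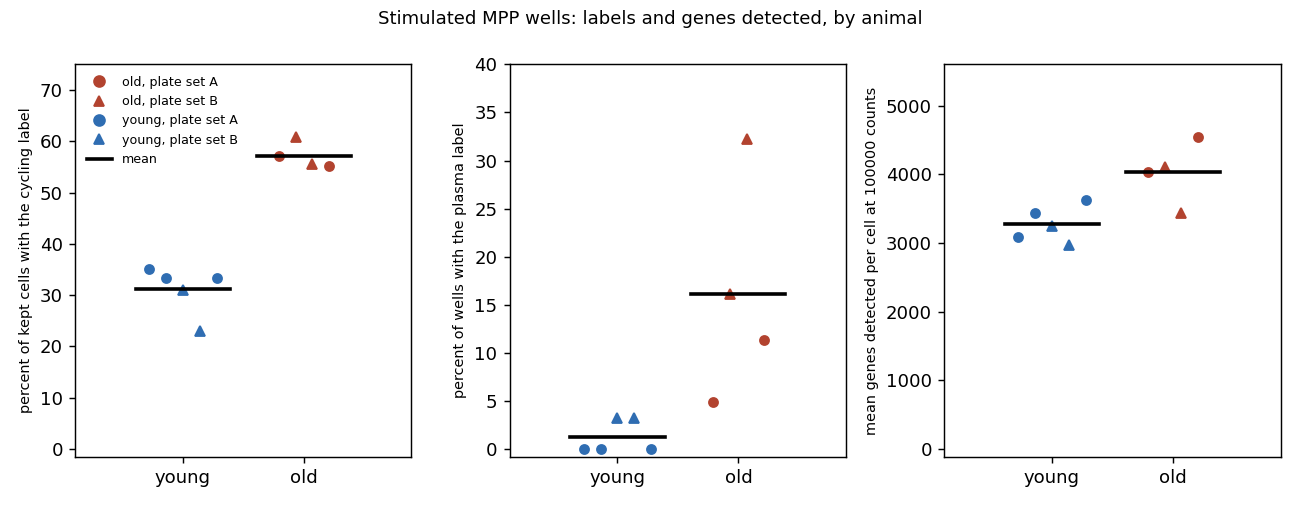
Percent of kept stimulated MPP with the cycling label (left), percent of stimulated MPP wells with the plasma label (middle) and mean genes detected per kept cell at 100000 counts (right), 1 point per animal, colour for age, shape for plate set and a bar for the group mean. Old and young mice do not overlap in the first 2 measures, at 55.2% to 60.9% against 23.1% to 35% for the cycling label, and overlap in genes detected.

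No listed gene of the Toll-like receptor response passed the test between the ages. In the NF-κB and Toll-like receptor list, 0 of 36 genes passed (24 positive, median 0.13). Nfkbia, the feedback inhibitor of NF-κB, was at 2012 ± 280 CPM in old and 1728 ± 291.7 CPM in young mice (SD; 0.20 ± 0.21, adjusted p = 0.928). The activation marker Cd83 was at 2334 ± 710.9 and 2676 ± 329.1 CPM (-0.16 ± 0.44, 0.982) and Tnf at 167.9 ± 52.02 and 150.2 ± 38.2 CPM (0.15 ± 0.66, 0.994). Of 24 cytokine and chemokine genes, 0 passed and 17 were negative (median -0.57). Their summed level was 2536 to 4109 CPM in old and 4361 to 5785 CPM in young mice, so the sums did not overlap, which is given with no test. The chemokine gene Ccl4 was at 378.5, 562.9, 453.8 and 214.1 CPM in old mice 2, 3, 2-2 and 2-3 (mean 402.3 ± 146.5) against a mean of 790 ± 324.1 CPM in young mice (-0.93 ± 0.37, adjusted p = 0.601). Il1b was at 53.2 ± 44.1 and 148.4 ± 122.6 CPM (-1.32 ± 0.71, 0.761), Ccl5 had a log2 fold change of -0.94 ± 0.82 (0.895), and Il6 at 14.9 ± 15.3 and 13.9 ± 16.7 CPM. Of 32 interferon response genes, 24 were negative (median -0.33, 0 passing). The receptors Tlr2 (-0.65 ± 1.03, adjusted p = 0.965) and Tlr4 (-1.50 ± 1.41, 0.906) did not pass.

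Summed marker levels of other cell types overlapped between the ages. Summed over the list, B cell markers were at 31.9 to 113.9 CPM in old and 17.04 to 56.1 CPM in young mice, dendritic cell markers at 889 to 1428 and 1002 to 1591 CPM, and monocyte and macrophage markers at 172.9 to 402.5 and 198.2 to 378.5 CPM. Granulocyte markers had a median log2 fold change of 3.01 over 10 genes, all 10 positive and none passing. Their median in unstimulated MPP was 2.09. Their sums in stimulated MPP were 459.1 to 4165 CPM in old and 400.9 to 2651 CPM in young mice. Of the stem cell ageing genes listed as higher in old mice, 0 of 23 passed (median -0.08). Among them Plscr2 was detected in 24.8% ± 15.3 of old and 2.03% ± 2.77 of young cells (limma, adjusted p = 0.0163).

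No class II gene passed the test in unstimulated MPP. Unstimulated H2-Aa was at 63.5, 53.6, 30.7 and 53.5 CPM in old mice 2, 3, 2-2 and 2-3 and at 30.2, 31.98 and 14.9 CPM in young mice 1, 2-1 and 2-3 (log2 fold change 0.84 ± 0.44, adjusted p = 1, edgeR). The test of whether the age difference changed with stimulation gave 1.95 ± 0.58 for H2-Aa (adjusted p = 0.976), 3.62 ± 1.27 for H2-Eb1 (0.98), 2.34 ± 0.62 for Cd74 (0.952) and -0.94 ± 0.32 for Serinc3 (0.976). No gene passed this test in edgeR, with 4.69% of genes at an unadjusted p under 0.05, and DESeq2 called 88. Mid1 and 1700112E06Rik had log2 fold changes of 3.86 ± 0.96 (0.92) and 5.10 ± 1.09 (0.484) in unstimulated cells. Among unstimulated MPP 2 genes passed (0.0158%), Nfkb2 and Gbp3, both higher in old mice.

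In 1 fit of all 48 sums, H2-Aa, Serinc3 and Mid1 also differed with age in stimulated ST-HSC. This fit had no animal term, so sums of 1 animal counted as independent, and its p-values may be too small. H2-Aa was 2.68 ± 0.38 in MPP (adjusted p = 0.000226), 1.72 ± 0.37 in ST-HSC (0.0397) and 0.93 ± 0.37 in LT-HSC (0.274). Its level in MPP of old mice, 136.01 to 210.3 CPM, was below that in ST-HSC of old mice, 261.4 to 366.3 CPM. The test of the difference between MPP and LT-HSC gave 1.76 ± 0.53 (adjusted p = 0.221), and between MPP and ST-HSC 0.96 ± 0.52 (0.745), so the age difference was not shown to differ between populations. Serinc3 fell in all 3, by 1.42, 1.68 and 1.28 on the log2 scale, and Mid1 rose in all 3 (4.45, 4.01 and 3.21; adjusted p 0.0158 to 0.0406). In this fit 5 genes passed in MPP (0.0346%), 17 in ST-HSC (0.118%) and 78 in LT-HSC (0.54%).

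**Figure D5:**
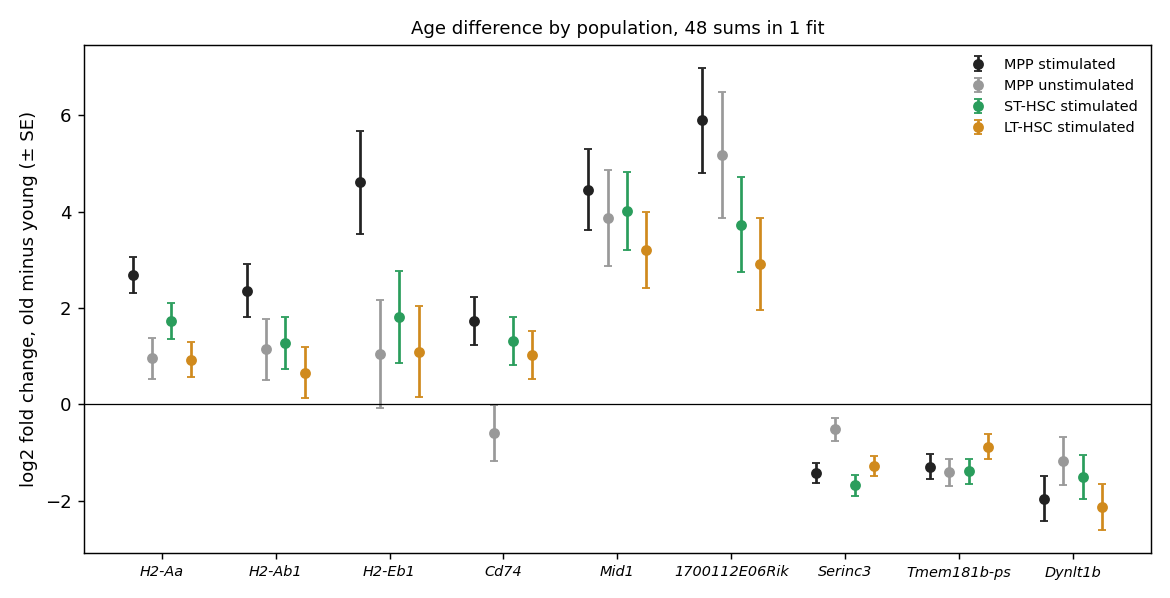
Age difference of the same 9 genes, as log2 fold change of old minus young with its standard error (y axis), in stimulated and unstimulated MPP and in stimulated ST-HSC and LT-HSC (colour). Mid1 and Serinc3 lie on the same side of 0 in the 4 sets of cells, and H2-Aa runs from 2.68 in stimulated MPP to 0.93 in LT-HSC.

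In the same fit, with no animal term, the age difference itself differed between MPP and LT-HSC for 13 genes (0.09%). Between MPP and ST-HSC it differed for 3 (0.0208%). Syk, a kinase of immune receptors, was at 80.5 ± 21.8 CPM in old and 110.5 ± 37.03 CPM in young MPP, and at 15.1 ± 6.86 and 88.3 ± 20.1 CPM in LT-HSC (difference of log2 fold changes 2.15 ± 0.39, adjusted p = 0.0198). Plac8 was at 437.1 ± 149.9 and 495.8 ± 115.7 CPM in MPP and at 4.396 ± 4.94 and 136.2 ± 38.3 CPM in LT-HSC (4.75 ± 0.87, 0.0198). Hk2, a hexokinase gene, was at 14.8 ± 11.1 and 21.7 ± 14.8 CPM in MPP and at 298.6 ± 113.7 and 18.9 ± 11.8 CPM in LT-HSC (-4.49 ± 0.98, 0.0485). In MPP none of these 3 passed (adjusted p at least 0.948).

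The wells of 100 stimulated MPP, from 3 old and 4 young mice, had overlapping ages for H2-Aa. They held 9332 to 514867 counts a mouse. H2-Aa was at 5.83, 16.5 and 214.3 CPM in old mice 2, 3 and 2-2 and at 29.8, 0, 26.9 and 316.1 CPM in young mice 2, 3, 2-1 and 2-3, which rest on 3, 8 and 2 counts and on 4, 0, 1 and 13 counts. The higher H2-Aa of old mice was thus not seen in the pools. The pools of old mice 2 and 3 held 514867 and 485696 counts. In both, H2-Aa was below its level in the summed single cells, where old mice averaged 164.6 ± 31.2 CPM. CPM of the pools were scaled to each pool's total without TMM factors, unlike those of the summed single cells. The reason was not tested. Igj, the J chain of immunoglobulins and a plasma cell marker, was at 128.2 to 8466 CPM in old and 0 to 8612 CPM in young pools. The part of Igj-bearing cells in the pool values was not tested. H2-Ab1 was lower in old pools (-1.25, adjusted p = 0.848, edgeR), and Cd74 (-0.32 ± 1.43, 0.973) and Serinc3 (-1.08, 0.791) were also lower. None of 1216 genes passed in edgeR or in DESeq2, with 64 and 90 at an unadjusted p under 0.05. In a pool, fewer cells of a type and less RNA per cell cannot be told apart.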

How the data were processed

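Each well was read by SMART-seq2. Per the submitters' processing notes, RSEM and the mm9 build were used; versions, aligner and annotation are not given in the sources used here. The authors deposited expected counts (estimated read counts per gene, 23366 symbols) and TPM for the same wells. Titles and mouse labels disagree for plate 4, and the mouse and plate labels were used, which makes mice 2-1, 2-2 and 2-3 separate animals. Columns were matched to samples by exact title.

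The 244 cells (112 old, 132 young) are those left of 372 stimulated MPP wells; 222 unstimulated MPP, 260 ST-HSC and 249 LT-HSC were kept likewise. Expected counts were rounded and summed per animal, which is the replicate. The p-values of the fits measure the spread between animals. Sums or shares of 1 animal within a fit were taken as independent unless an animal block is stated. edgeR 4.0.16 (quasi-likelihood, TMM, filterByExpr) fitted 16 MPP sums in 4 groups of age and treatment with plate set as covariate, in R 4.3.3; limma 3.58.1 tested detection shares of genes with a mean share of at least 5%, and DESeq2 1.42.0 was an alternative. limma on log2(mean TPM + 1) or + 0.1 kept genes averaging 5 TPM or more. Thinning left out cells under 100000 counts. Single animals far from their group were looked for in 118 groups of values. Well measures used Python 3.11.15. On simulated counts for old against young stimulated MPP (12664 genes), edgeR recovered 7.46% of 2-fold, 55.2% of 4-fold and 69.7% of 8-fold changes and called 8 unchanged genes. The simulation planted 67, 67 and 66 such changes and gave the stimulated sums no plate set difference. Its rates need not hold for the data, where 5 genes passed, fewer than the 8 false calls. Stimulated and unstimulated sums of 1 animal (7 animals) correlated at a mean r of 0.15 over 5260 genes after group means were removed and at -0.0818 with plate set removed too.

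Named genes were the calls averaging a log2 CPM of 3 or more (predicted or unnamed symbols skipped, 1 gene), the 6 of smallest p in each direction, fixed single genes and up to 3 of smallest p per list; Dynlt1b copies, 1700112E06Rik and genes called by detection share were added after values were seen. The members and lists were chosen with earlier results of these data known. No read identifiers exist, so the limit set by a count of 0 (3 counts) covers counting error only. No mm9 annotation was used here, so no gene positions are given beside the promoters.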

Additional observations from a re-analysis of the deposited data

Results flagged for a closer look

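Of the groups of 4 or 5 animals' values looked at, 6 had 1 animal far from the rest, about the number that chance gives at 1 in 20 groups. Cd74 was at 208.5 CPM in young mouse 2 and at most 94.4 CPM in the other young mice. Stat3 was at 726.9 CPM in young mouse 1 against at most 560.6 CPM in the other young mice, and Plscr2 at 20.9 CPM there against at most 4.401. The other 3 had a single animal above 0, which meets the limit whatever its level: Klf5 had 2.49 CPM in young mouse 3, Il1a 0.665 CPM in old mouse 2-2 and Slc5a6 0.048 CPM in old mouse 2.

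The age difference in stimulated MPP differed from that in stimulated LT-HSC for 13 genes by a test of the difference (edgeR, 48 sums, no animal term). The difference of log2 fold changes was positive for Plac8 (4.75), Syk (2.15) and Parvg (1.52). It was negative for Hk2 (-4.49), Smim3 (-2.59), Lpp (-1.81), Neat1 (-1.76), Stat5a (-1.68), Cd63 (-1.58), Tsc22d1 (-1.17), Srgn (-1.02), Sdcbp (-0.79) and Actg1 (-0.75). Against ST-HSC it was negative for Rad54l (-9.31), Plxna1 (-13.80) and Clec1a (-16.13); each of these has a group whose animals are all or nearly all at 0, so the fitted values depend on the prior count and are no measure of size.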

How the results depend on the processing

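No followed gene changed direction under any alternative run of the single-cell comparison, while the percent of genes passing moved widely. The pools were not among these runs, and there H2-Ab1 (-1.25) and Cd74 (-0.32) had negative log2 fold changes. For old against young stimulated MPP it was 0.0395% in edgeR, 1.22% in DESeq2 (89 higher, 59 lower), 0.578% with no filter on low counts, 0 in the 9 stimulated sums alone, 0.00703% and 0 within plate sets A and B, 0 without cells labelled cycling, 0.109% and 0.0978% by limma on TPM (+ 1 and + 0.1), and 0 to 0.0557% leaving out 1 animal. With the mouse number as a replicate block 0 genes passed, though old and young mice of 1 number are different animals, and with the animal as a random block (limma-voom) 0.15%. For detection shares 0.368% became 0.685% unthinned, 0.963% with Rn45s left out, and 0.0283% to 1.64% leaving out 1 animal. For the change of the age difference with stimulation, 0 became 0.726% in DESeq2, stayed 0 with the animal as a block, and was 0 to 0.00798% leaving out 1 animal. For MPP against LT-HSC, 0.09% became 2.26% in DESeq2 and 0.0554% with the animal block; against ST-HSC, 0.0208% became 1.79% and 0.00692%. The cause of these moves was not tested, except that leaving out animals leaves fewer samples.

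Permuted within plate sets, the cycling (26.03 points) and plasma label differences (14.84 points) had an adjusted p of 0.05, and genes detected at 100000 counts one of 0.0667. Permuted over all mice, not within plate sets, genes detected differed by 679.995 at 50000 counts (adjusted p = 0.0317). Leaving out 1 animal gave 24.01 to 26.99 points for cycling, 9.46 to 18.6 for plasma (adjusted p 0.0357 to 0.0857 for both, so most of these settings no longer passed), 582.9 to 949.3 genes, -15.1 to -5.65 points of wells kept, -4.39 to 1.69 points of Rn45s and -33929 to 43818 median counts. Depth limits genes detected in few cells: 1700112E06Rik was in no young cell at 100000 counts and in a mean of 5.93% of young cells without thinning.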
